A study of Homo sapiens with 24 samples.

Results

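Expressed long noncoding RNA (lncRNA) genes were examined in RNA-sequencing counts from RCC4+VHL cells, a clear cell renal carcinoma line given back a working VHL gene by stable transfection, so that HIF-α is again degraded when oxygen is present. The genes were chosen by name and by level. A symbol had to begin with LINC0, or with SNHG and a digit, or to begin with MIR and end in HG, or to end in -AS and a digit, or to be NEAT1, MALAT1, GAS5 or DANCR. It also had to have at least 10 counts in at least 6 of the 24 libraries. Of 23106 symbols in the count tables, 302 matched a name and 73 met both conditions. Their counts thus chose the genes, so that they are expressed is no finding, while the rule uses no difference between groups. No symbol in the tables ended in -AS and a digit, so no antisense gene entered by that route. By symbol the 73 comprised 47 LINC genes, 15 snoRNA host genes (GAS5 and DANCR among them), 9 miRNA host genes, and NEAT1 and MALAT1.

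The libraries formed 4 groups of 6 independent replicates, all from the same transfected line and all harvested after 6 h of treatment. Cells in normoxia + DMSO were kept in ambient oxygen (21%) with 0.1% DMSO as vehicle, and cells in normoxia + ITE received 100 nM ITE, an indole ligand of the aryl hydrocarbon receptor (AHR), at the same oxygen level. Cells in hypoxia + DMSO and hypoxia + ITE were held at 0.5% oxygen with the same vehicle or ligand. Before treatment all cells had been moved to medium with charcoal-treated serum. Poly(A)-selected RNA was sequenced, so transcripts without a poly(A) tail were measured poorly or not at all.

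lncRNA genes are transcribed and often spliced like protein-coding genes, but their RNA is not known to be translated into a protein of ordinary length. A snoRNA host gene carries small nucleolar RNAs in its introns. The introns release the snoRNAs, which guide modification of ribosomal RNA, while the spliced host RNA is commonly removed by nonsense-mediated decay. A miRNA host gene is the primary transcript from which a microRNA hairpin is cut, and MIR210HG is known to be induced by HIF in many cell types. NEAT1 is the scaffold of the nuclear bodies called paraspeckles, and MALAT1 gathers at nuclear speckles. HIF binds DNA at an ACGTG or GCGTG core as a dimer with ARNT, and AHR with the same partner prefers GCGTG.

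In the hypoxia comparisons described below, 4 of the genes passed the test: MIR210HG, MIR155HG, SNHG7 and SNHG12. The mature microRNAs encoded within the 2 miRNA host genes are shown because they are the known products of these transcripts. They are given as in RefSeq (GRCh38.p14), with the seed, bases 2 to 8, in capitals. The 4 sequences had 4 different seeds. The mature microRNAs themselves were not measured here.
hsa-miR-210-3p: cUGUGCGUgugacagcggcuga
hsa-miR-210-5p: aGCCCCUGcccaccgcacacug
hsa-miR-155-5p: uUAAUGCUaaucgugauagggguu
hsa-miR-155-3p: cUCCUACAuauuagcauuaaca

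The promoter windows of the same 4 genes are shown because HIF and AHR both act through short cores that can be read there. Each runs from 250 bases before to 50 bases after the RefSeq start (GRCh38.p14), 5′ to 3′ on the gene's strand, and capitals mark ACGTG or GCGTG on either strand. The windows lie at chr11:568408-568707 (minus strand) for MIR210HG, chr21:25561895-25562194 (plus strand) for MIR155HG, chr9:136728135-136728434 (minus strand) for SNHG7 and chr1:28581824-28582123 (minus strand) for SNHG12.
MIR210HG: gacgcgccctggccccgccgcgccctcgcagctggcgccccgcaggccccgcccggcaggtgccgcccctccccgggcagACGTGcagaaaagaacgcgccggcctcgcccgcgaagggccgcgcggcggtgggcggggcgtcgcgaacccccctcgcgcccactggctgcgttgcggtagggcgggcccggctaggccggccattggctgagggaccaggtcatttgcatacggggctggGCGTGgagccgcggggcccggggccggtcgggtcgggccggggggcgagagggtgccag
MIR155HG: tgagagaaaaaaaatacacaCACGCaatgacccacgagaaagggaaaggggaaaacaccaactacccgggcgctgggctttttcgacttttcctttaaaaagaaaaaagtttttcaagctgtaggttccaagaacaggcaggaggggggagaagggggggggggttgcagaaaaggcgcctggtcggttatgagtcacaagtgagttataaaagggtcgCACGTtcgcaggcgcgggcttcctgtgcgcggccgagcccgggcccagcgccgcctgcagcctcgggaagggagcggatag
SNHG7: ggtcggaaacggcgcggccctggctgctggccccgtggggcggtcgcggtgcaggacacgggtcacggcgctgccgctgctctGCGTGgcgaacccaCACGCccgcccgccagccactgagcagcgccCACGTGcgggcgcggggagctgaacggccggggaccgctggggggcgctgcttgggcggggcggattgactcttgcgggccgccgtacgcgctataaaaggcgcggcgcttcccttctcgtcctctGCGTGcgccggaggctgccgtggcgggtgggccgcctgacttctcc
SNHG12: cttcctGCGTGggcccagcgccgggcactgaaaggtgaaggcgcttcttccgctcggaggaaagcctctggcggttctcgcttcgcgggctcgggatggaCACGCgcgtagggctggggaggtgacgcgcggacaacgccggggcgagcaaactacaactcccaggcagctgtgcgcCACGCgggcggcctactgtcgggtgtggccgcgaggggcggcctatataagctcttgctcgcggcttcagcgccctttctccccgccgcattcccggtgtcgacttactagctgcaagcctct

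MIR210HG and MIR155HG each had 1 ACGTG and 1 GCGTG, SNHG7 had 2 ACGTG that overlap in a palindromic CACGTG and 3 GCGTG, and SNHG12 had 3 GCGTG and 0 ACGTG. Such cores are common. Among 27305 RefSeq promoter windows of this length, 21.6% held ACGTG, 36.3% held GCGTG and 48.4% held either one. Among the 62 of the 73 genes with a promoter entry the shares were 30.6%, 45.2% and 59.7%. A match in the letters is a description of the window and not a binding site.

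The 73 symbols come from an older gene catalogue. All 73 matched a RefSeq entry, 57 by symbol and 16 by synonym. RefSeq now lists 68 as lncRNA and 5 as protein coding, namely LINC00085 (SPACA6), LINC00094 (BRD3OS), LINC00116 (MTLN), LINC00493 (SMIM26) and LINC00634 (SMIM45), 4 of which were tested. Several have other names today, among them LINC00152 (CYTOR), LINC00657 (NORAD), LINC00338 (SNHG20), LINC00478 (MIR99AHG) and LINC00669 (MIR924HG). LINC00338, LINC00478 and LINC00669 thus carry host gene names today. They are counted here as LINC genes, by their older symbols, and not among the snoRNA and miRNA hosts. In GENCODE v44 on GRCh37, the build of the deposited counts, 70 of the genes were located, on 21 chromosomes, and 42 of these were overlapped by a gene on the opposite strand. The counting step's strand setting is not given in the sources used here, so reads from overlapping partners may not have been told apart.

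Depth set how many of the genes could be seen. Library totals ran from 770094 to 93851342 counts (median 7981992). The shallowest library, hypoxia + DMSO replicate 2, had at least 10 counts for 23 of the 73 genes, and the deepest for all 73. Levels are given as CPM, the counts of a gene scaled to 1 common library size with TMM factors. On that scale a total of 3 counts lay anywhere from 0.0294 CPM in the deepest library to 4.12 CPM in the shallowest. At least 10 counts were reached in some library of every group by 69 of the genes and in all 24 libraries by 22. No gene reached 10 counts only in normoxia or only in hypoxia. Just inside the limit of 6 libraries were LINC00323, LINC00607, LINC00640 and LINC00853, with 153 to 163 counts in total. Just outside it, with 5 libraries, were LINC00471 and LINC00514, with 158 and 188 counts. The filter for testing kept 56 of the 73 genes: all 15 snoRNA hosts, 7 of 9 miRNA hosts, 32 of 47 LINC genes, NEAT1 and MALAT1.

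**Figure D1:**
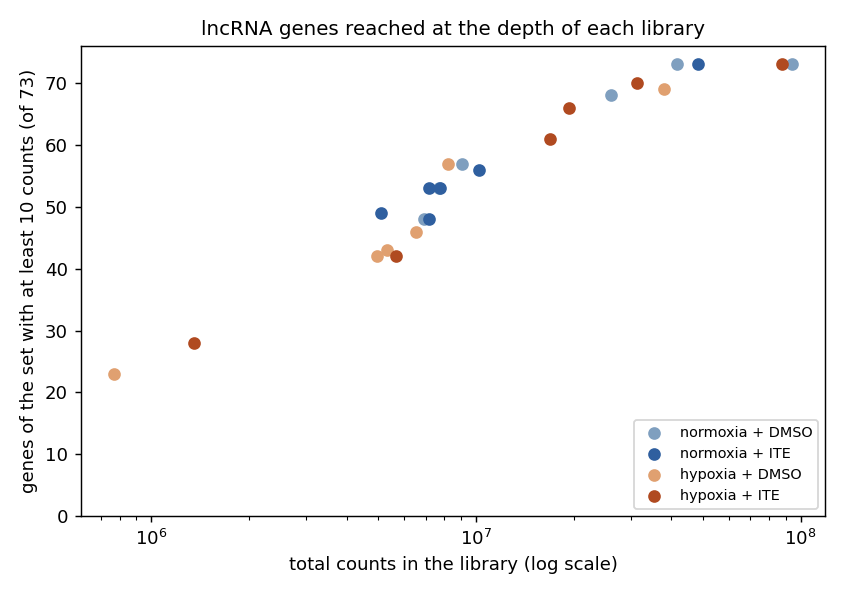
The horizontal axis is the total count of a library on a log scale and the vertical axis the number of the 73 lncRNA genes with at least 10 counts, with 1 point per library coloured by group. The number of genes reached follows depth, from 23 genes at 770094 counts to 73 in the deepest libraries, and the 2 shallowest libraries are both hypoxic.

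Some libraries stood apart. Hypoxia + DMSO replicate 1 and hypoxia + ITE replicate 3 had the highest shares of counts on the 73 genes (0.285% and 0.297%, against a median of 0.206% over all libraries) and high summed ribosomal protein gene levels (135906 and 143396 CPM over 85 genes, against 74491 to 99265 CPM in hypoxic libraries other than these and hypoxia + ITE replicate 6). Hypoxia + ITE replicate 6 had the lowest share (0.167%), 175074 CPM of ribosomal protein genes, 53.4 CPM of RPPH1 and 43.9 CPM of RMRP, both RNAs without a poly(A) tail. Normoxia + DMSO replicate 4 alone held DCN (2.98 CPM, against 0 elsewhere), a fibroblast gene, and it had 27.1 CPM of COL1A1, another fibroblast marker. The summed fibroblast markers reached 32 CPM in normoxia + DMSO and at most 3.33 CPM in the other groups. VHL, which the line carries as a transgene, was read at 701 CPM in hypoxia + ITE replicate 6 and at 147 to 293 CPM in all other libraries. The 8 renal epithelial markers summed to between 1460 and 5080 CPM, the highest in hypoxia + ITE, where the median was 1960 CPM. The summed endothelial and leukocyte markers did not exceed 3.83 and 0.552 CPM. As checks on the treatments, all 8 tested genes of a hypoxia list were higher in hypoxia with either DMSO or ITE (NDRG1 33.2 ± 6.02 CPM in normoxia + DMSO and 316 ± 58.6 CPM in hypoxia + DMSO, SD, n = 6). The AHR target CYP1B1 averaged 56.7 ± 7.75 CPM under DMSO and 322 ± 53 CPM under ITE in normoxia (SD, n = 6).

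The lncRNA genes differed widely in level. Mean CPM over the 24 libraries ran from 0.225 to 495 with a median of 4.4, and 19 of the 73 genes lay under 1 CPM. Together they summed to 2156 CPM, of which the snoRNA hosts held 44.1%, NEAT1 and MALAT1 26.9%, the LINC genes 25.6% and the miRNA hosts 3.38%. MALAT1 was highest (mean 495 CPM), followed by GAS5 (266 CPM), LINC00657 (NORAD, which binds Pumilio proteins, 183 CPM) and SNHG6 (114 CPM). The 10 highest held 72.8% of the sum. Per kilobase of exon in GENCODE, which stands in for the gene models used in counting, GAS5 led with 53.9 CPM per kilobase. It was followed by MALAT1 (47.4), LINC00493 (46.1), SNHG6 (45.1) and LINC00657 (33.9), and then by SNHG1 (22.3), SNHG7 (18.8), MIR155HG (14.6), SNHG16 (13.0) and SNHG8 (11.9), all in CPM per kilobase. NEAT1, divided by all 22767 bases of exon in its entry, came to 3.75 CPM per kilobase. The counts do not tell its transcripts apart, so the level of a NEAT1 transcript without a poly(A) tail is not known. LINC00674 (mean 49.9 CPM) was left out of this order because its GENCODE entry held only 160 bases of exon, a pseudogene model that would give 312 CPM per kilobase, and LINC00312, LINC00623 and LINC00673 were not located and have no value per kilobase.

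Few of the expressed lncRNA genes were called as higher in hypoxia. With DMSO, MIR210HG, MIR155HG and SNHG7 were higher in hypoxia. With ITE, MIR210HG, SNHG7 and SNHG12 were higher. The share of genes called was 3 of 56 tested (5.36%) in each comparison, by edgeR's quasi-likelihood test with Benjamini-Hochberg adjustment over all 11735 genes at 0.05. Among all tested genes 1.3% were called for hypoxia with DMSO (1.16% as higher) and 2.35% for hypoxia with ITE (1.89% as higher). DESeq2 also called 3 of the 56 in each comparison, against 2.12% of all genes with DMSO and 5.73% with ITE. Limma voom with sample quality weights called 6 with DMSO (7.16% of all genes) and 3 with ITE (5.16%). With ITE the share of 3 of 56 thus lay near that of all genes by both of these tools. With edgeR none of the 56 was called lower. The unadjusted p was under 0.05 with the lower sign for 4 genes with DMSO and 3 with ITE. In both directions together it was under 0.05 for 11 of the 56 with DMSO (19.6%, against 9.47% of all genes) and for 15 with ITE (26.8%, against 20.1%). In bulk samples a smaller number of cells making an RNA and less of it per cell cannot be told apart. The p-values set a group difference against the spread between these replicates.

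The median log2 fold change over the 56 genes was -0.01 with DMSO (all genes -0.00) and 0.14 with ITE (all genes 0.02). With DMSO 28 were positive and 28 negative, and with ITE 35 were positive and 21 negative. For hypoxia against normoxia with ITE the median became 0.03 when hypoxia + DMSO replicate 1 and hypoxia + ITE replicate 3 were both left out. Groups that did not overlap in CPM were found for 4 of the 56 with DMSO, namely GAS5, MIR210HG and SNHG7 on the higher side and LINC00094 on the lower, and for 2 with ITE, MIR210HG higher and SNHG4 lower. Over all genes 2.74% and 2.13% did not overlap. By kind, the calls with DMSO and with ITE were 2 and 1 of 7 miRNA hosts, 1 and 2 of 15 snoRNA hosts, 0 and 0 of 32 LINC genes, and neither NEAT1 nor MALAT1.

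**Figure D2:**
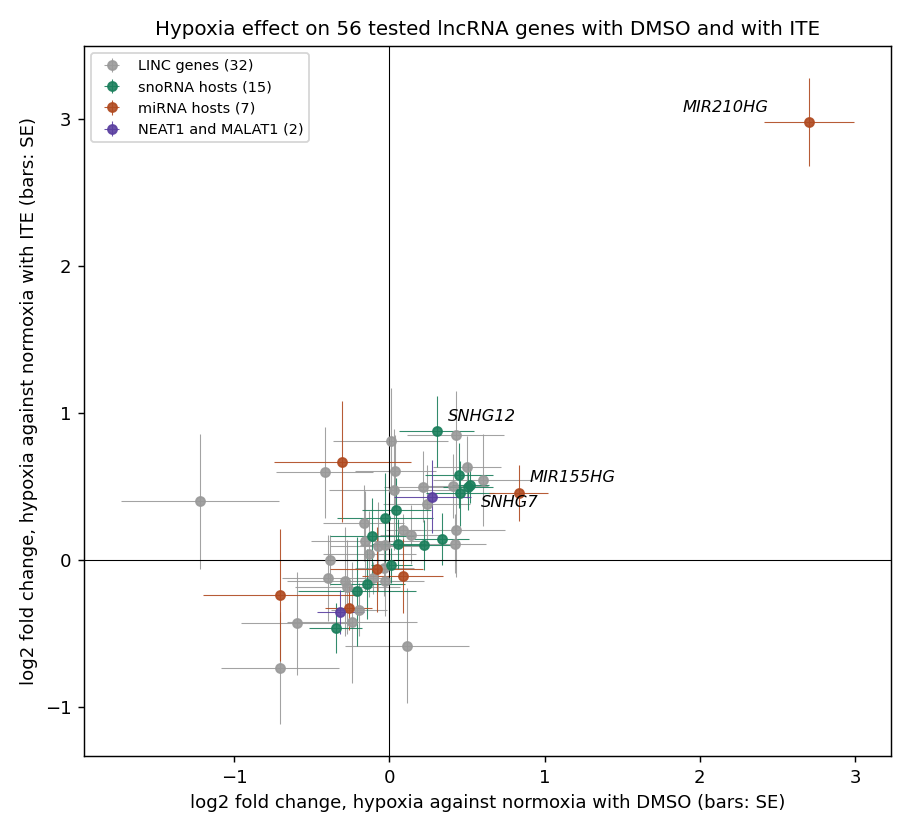
The horizontal axis is the log2 fold change of hypoxia against normoxia with DMSO and the vertical axis the same with ITE, with 1 point per tested lncRNA gene (56), bars of 1 SE and colours by kind of gene. MIR210HG sits alone at 2.70 and 2.98, while the other 55 genes lie between -1.22 and 0.88 on both axes.

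MIR210HG, the host transcript of miR-210, lies on chromosome 11 at 565657-568457 on the minus strand (GRCh37). Its level in normoxia + DMSO was 1.27 at the lowest, 1.77 at the median and 4.06 CPM at the highest, and in hypoxia + DMSO 11, 13.8 and 14.9 CPM. In normoxia + ITE the lowest, median and highest levels were 0.964, 2.66 and 3.63 CPM, and in hypoxia + ITE 9.66, 18.1 and 33.6 CPM. Every hypoxic library lay above every normoxic one, the highest being hypoxia + ITE replicate 6. The log2 fold change was 2.70 (SE 0.29, adjusted p 4.14e-07) with DMSO, a 6.51-fold difference with a 95% interval of 4.29 to 9.85. With ITE it was 2.98 (SE 0.30, adjusted p 1.04e-07), or 7.87-fold with an interval of 5.17 to 12, and 2.75 (adjusted p 4.77e-08) without hypoxia + ITE replicate 6. The gene was called in both comparisons under all 39 alternative settings. Among these, the stricter rule for membership (10 counts in at least 12 libraries) repeats the main fit for any single gene. It could therefore not change a call, here or in the counts of alternatives below. The depth behind the smallest values was low: hypoxia + DMSO replicate 2 held 8 MIR210HG counts and normoxia + ITE replicate 3 held 7.

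The nearest tested genes of MIR210HG were not uniformly higher. RASSF7, which ends 1632 bases away on the other strand, had a log2 fold change of 0.58 (adjusted p 0.442) with DMSO and 1.20 (adjusted p 0.00678) with ITE. C11orf35, 4919 bases away on the same side, stood at 0.38 (adjusted p 0.827) and 1.07 (adjusted p 0.143). PHRF1, 8013 bases away on the other side, stood at -0.18 (adjusted p 0.785) and 0.03 (adjusted p 0.936). Beyond PHRF1, IRF7 stood at 0.20 (adjusted p 0.896) and 0.89 (adjusted p 0.0904). Each of these differences was smaller than that of MIR210HG in the same comparison.

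MIR155HG, the host transcript of miR-155 and known from lymphoid cells, lies on chromosome 21 at 26934122-26947480 on the plus strand. In normoxia + DMSO its level was 14.4 at the lowest, 18.4 at the median and 22.8 CPM at the highest, and in hypoxia + DMSO 22, 31.9 and 41.7 CPM. Only the lowest hypoxic library, hypoxia + DMSO replicate 2 with 16 counts, fell inside the normoxic range. Its log2 fold change was 0.83 (SE 0.19, adjusted p 0.0188), which is 1.78-fold with an interval of 1.36 to 2.35. Hypoxia was higher in 6 of 6 same-numbered replicates. Here and below, the replicate numbers share no stated batch and the fit did not pair them. The call did not hold in 10 of 39 alternatives, all of which left libraries out: the adjusted p was 0.0572 without normoxia + DMSO replicate 1, 0.0715 without replicate 2 and 0.0513 without replicate 4 of that group. It was 0.0574, 0.0548 and 0.0575 without hypoxia + DMSO replicates 1, 5 and 6. The other 4 settings left 1 replicate number out of every group, with adjusted p from 0.0557 to 0.171. The log2 fold change stayed between 0.72 and 0.90 over the 39 alternatives. Leukocyte markers summed to at most 0.552 CPM in any library.

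With ITE, MIR155HG was not called. Its lowest, median and highest levels were 19.7, 22.4 and 26 CPM in normoxia + ITE and 19.3, 29.6 and 53.5 CPM in hypoxia + ITE, so the groups overlapped and the spread was wide in hypoxia. The log2 fold change was 0.46 (SE 0.19, 95% interval 0.06 to 0.85, adjusted p 0.178), and 0.22 (adjusted p 0.507) without hypoxia + ITE replicate 3. Whether the effect of hypoxia differed between ITE and DMSO was tested by the interaction, which was -0.38 (SE 0.27, interval -0.93 to 0.18, adjusted p 0.915). The nearest tested gene on one side, MRPL39, 10488 bases away, stood at 0.19 (adjusted p 0.785) with DMSO and 0.14 (adjusted p 0.68) with ITE.

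The other 5 tested miRNA hosts did not pass the test. MIR22HG had a log2 fold change of -0.26 ± 0.15 (SE) with DMSO and -0.33 ± 0.15 with ITE. MIR17HG, host of the miR-17-92 cluster of proliferation-linked microRNAs, stood at 0.08 and -0.11, and MIR31HG at -0.08 and -0.06. MIRLET7BHG, which carries let-7 microRNAs, had -0.30 ± 0.44 and 0.67 ± 0.41. MIR600HG, the lowest of them, had -0.71 ± 0.49 and -0.24 ± 0.45. The wide errors of the last 2 go with levels near 1 CPM: the group medians of MIRLET7BHG were 1.09 to 1.28 CPM and those of MIR600HG 0.401 to 1.11 CPM.

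**Figure D3:**
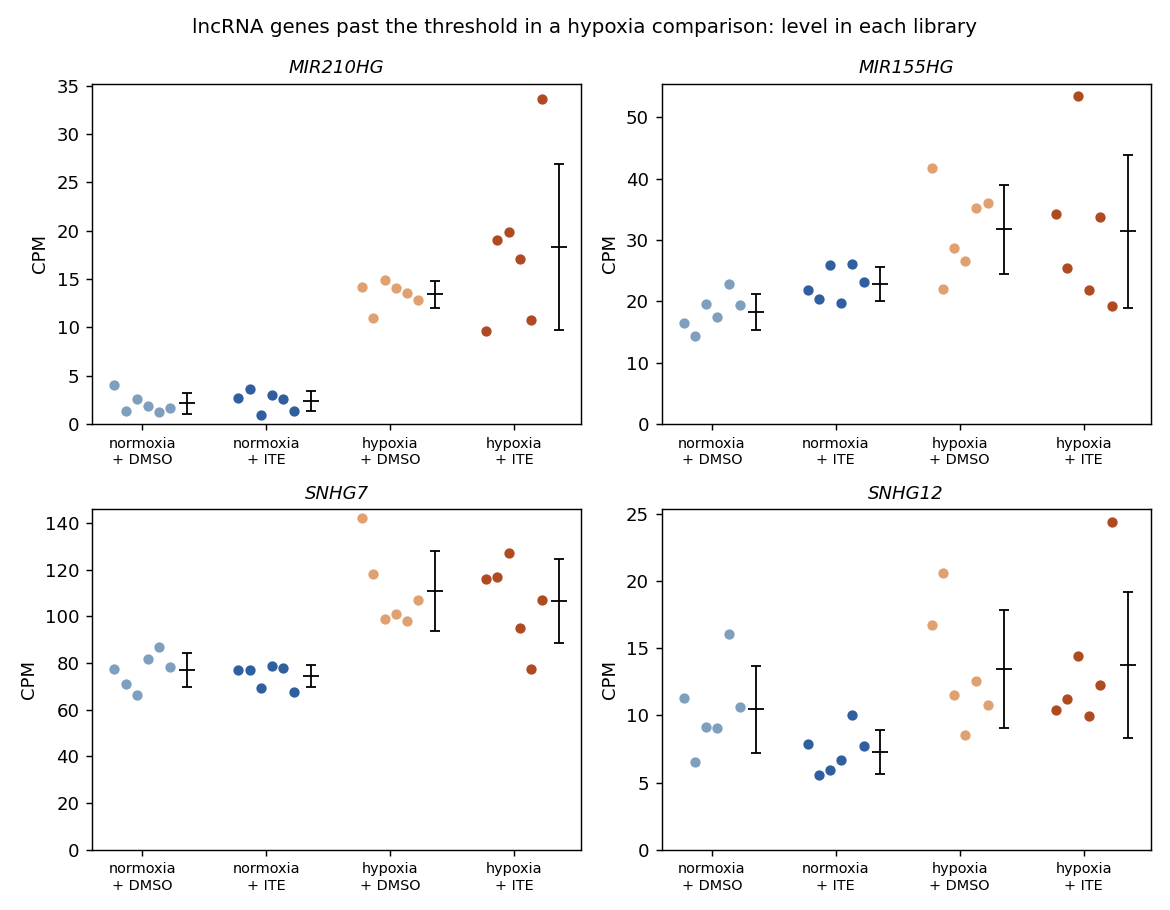
Each panel shows 1 gene that passed the test in a hypoxia comparison, with the level in CPM on the vertical axis, 1 point per library and a bar for the group mean and SD (n = 6). MIR210HG separates hypoxia from normoxia completely, SNHG7 does so with DMSO, and the MIR155HG and SNHG12 groups touch or overlap.

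SNHG7 was the snoRNA host that passed the test in both hypoxia comparisons. It lies on chromosome 9 at 139615818-139622636 on the minus strand, with 2 RefSeq snoRNAs in its span. Its lowest, median and highest levels were 66.3, 77.9 and 87.0 CPM in normoxia + DMSO and 97.8, 104 and 142 CPM in hypoxia + DMSO. With ITE they were 67.5, 77.1 and 78.5 CPM in normoxia and 77.6, 112 and 127 CPM in hypoxia. The DMSO groups did not overlap, and with ITE only hypoxia + ITE replicate 5 fell to the normoxic level. SNHG7 had a log2 fold change of 0.52 (SE 0.12, adjusted p 0.0158) with DMSO and 0.51 (SE 0.12, adjusted p 0.0154) with ITE. These are 1.43-fold (interval 1.21 to 1.69) and 1.42-fold (1.21 to 1.68), with hypoxia higher in 6 of 6 and 5 of 6 same-numbered replicates.

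The SNHG7 call was lost in 7 of 39 alternatives with DMSO and in 4 of 39 with ITE, while its log2 fold change stayed between 0.43 and 0.59 and between 0.39 and 0.60. With DMSO the adjusted p was 0.0521 without hypoxia + DMSO replicate 1, 0.0534 without normoxia + DMSO replicate 2 and 0.0638 without normoxia + DMSO replicate 3. With ITE it was 0.112 when only the ITE groups were fitted. Leaving out hypoxia + DMSO replicate 1 and hypoxia + ITE replicate 3 together gave 0.43 (adjusted p 0.0278) and 0.46 (adjusted p 0.0156). FAM69B, which overlaps SNHG7 on the opposite strand, stood at -0.17 (adjusted p 0.913) and 0.00 (adjusted p 0.997).

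SNHG12, on chromosome 1 at 28905050-28909644 on the minus strand with 4 snoRNAs in its span, passed the test with ITE. Its lowest, median and highest levels were 5.54, 7.23 and 10.0 CPM in normoxia + ITE and 9.99, 11.7 and 24.4 CPM in hypoxia + ITE, so the groups met at their edges. In normoxia + DMSO they were 6.53, 9.86 and 16.1 CPM and in hypoxia + DMSO 8.56, 12.1 and 20.6 CPM, which overlapped. With ITE the log2 fold change was 0.88 (SE 0.24, adjusted p 0.0434), 1.84-fold with an interval of 1.31 to 2.57, and hypoxia was higher in 6 of 6 same-numbered replicates. With DMSO it was 0.30 (SE 0.24, adjusted p 0.747), and the interaction was 0.57 (SE 0.33, interval -0.11 to 1.25, adjusted p 0.915).

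The SNHG12 call was close to the threshold and held in 16 of 39 alternatives, among them the stricter rule for membership, which repeats the main fit. The adjusted p over the 39 ran from 0.0102 to 0.231. Leaving out hypoxia + ITE replicate 6, the highest library, gave a log2 fold change of 0.65 (adjusted p 0.115), and leaving out hypoxia + ITE replicate 3 gave 0.86 (adjusted p 0.0762). Without single normoxia + ITE replicates 1, 2, 3, 4 or 6 the adjusted p lay between 0.0743 and 0.103, and with only the ITE groups fitted it was 0.137. By voom the log2 fold change was 0.44 (adjusted p 0.155), and without the low-count filter the adjusted p was 0.0575. The call was also lost without normoxia + DMSO replicates 1, 3, 4 or 6 and without hypoxia + DMSO replicates 3, 5 or 6, with adjusted p from 0.0513 to 0.0548 and a log2 fold change of 0.88 each time. TRNAU1AP, which overlaps SNHG12 on the opposite strand, stood at 0.09 (adjusted p 0.805) with ITE.

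GAS5, a snoRNA host with 11 RefSeq snoRNAs in its span and a known growth-arrest transcript, was higher in every hypoxia + DMSO library than in any normoxia + DMSO library but did not pass the test. Its lowest, median and highest levels were 178, 225 and 231 CPM in normoxia + DMSO and 232, 283 and 441 CPM in hypoxia + DMSO. With ITE they were 197, 226 and 266 CPM and 231, 279 and 483 CPM. The log2 fold change was 0.50 (SE 0.16, interval 0.17 to 0.84, adjusted p 0.19) with DMSO and 0.50 (SE 0.16, interval 0.16 to 0.84, adjusted p 0.095) with ITE. Without hypoxia + DMSO replicate 1 and hypoxia + ITE replicate 3 it was 0.36 (adjusted p 0.292) and 0.35 (adjusted p 0.14). It was called with DMSO by limma voom with sample quality weights (0.41, adjusted p 0.00983), and with ITE when hypoxia + ITE replicate 4 or 5 was left out (adjusted p 0.0429 and 0.0355).

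Among the other snoRNA hosts, SNHG5, SNHG8 and SNHG6 had positive values and SNHG4 negative ones, none past the threshold. SNHG5 stood at 0.45 ± 0.22 (SE) with DMSO and 0.58 ± 0.22 (adjusted p 0.142) with ITE, where it was called without hypoxia + ITE replicate 5 (0.70, adjusted p 0.0451). SNHG8 stood at 0.45 ± 0.22 and 0.46 ± 0.22. SNHG6 stood at 0.34 ± 0.18 and 0.14 ± 0.18. SNHG4, on chromosome 5 inside a span shared with SIL1 on the other strand, had lowest, median and highest levels of 11.9, 13.4 and 15.6 CPM in normoxia + ITE and 8.41, 9.89 and 10.9 CPM in hypoxia + ITE. Those groups did not overlap, with a log2 fold change of -0.46 (SE 0.17, interval -0.80 to -0.12, adjusted p 0.12). With DMSO the value was -0.35 (SE 0.17, adjusted p 0.52).

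DANCR, named for its part in holding back cell differentiation, showed little difference. Its lowest, median and highest levels were 60.7, 72.1 and 77.3 CPM in normoxia + DMSO and 59.1, 71.4 and 88.2 CPM in hypoxia + DMSO. DANCR had a log2 fold change of 0.01 (interval -0.24 to 0.27) with DMSO and -0.03 (interval -0.29 to 0.22) with ITE. SNHG1, with 9 snoRNAs in its span, stood at 0.22 ± 0.17 (SE) and 0.11 ± 0.17. SNHG3 (0.06 and 0.11), SNHG9 (-0.21 and -0.21), SNHG10 (-0.03 and 0.29), SNHG11 (-0.11 and 0.16), SNHG15 (-0.14 and -0.16) and SNHG16 (0.05 and 0.34) did not pass either with edgeR. Voom called SNHG15 lower with ITE, at -0.49 (adjusted p 0.0321).

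The summed level of the 15 snoRNA hosts moved with the libraries that stood apart. It was 1560 CPM in hypoxia + DMSO replicate 1 and 1580 CPM in hypoxia + ITE replicate 3, against 842 to 1060 CPM and 849 to 1080 CPM in the other libraries of those groups and 763 to 951 CPM in normoxia. The same 2 libraries had high ribosomal protein gene sums, and the part of this in the host gene values was not tested. SNHG16 is an example: its values of 0.05 and 0.34 became -0.14 and 0.02 when both libraries were left out. Of 10 genes for nonsense-mediated decay factors, the pathway that removes spliced host RNAs, none was called for hypoxia with edgeR. Over all genes 1.3% were called with DMSO and 2.35% with ITE. The unadjusted p was under 0.05 for 1 of the 10 with DMSO and 3 with ITE, against 9.47% and 20.1% of all genes.

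**Figure D4:**
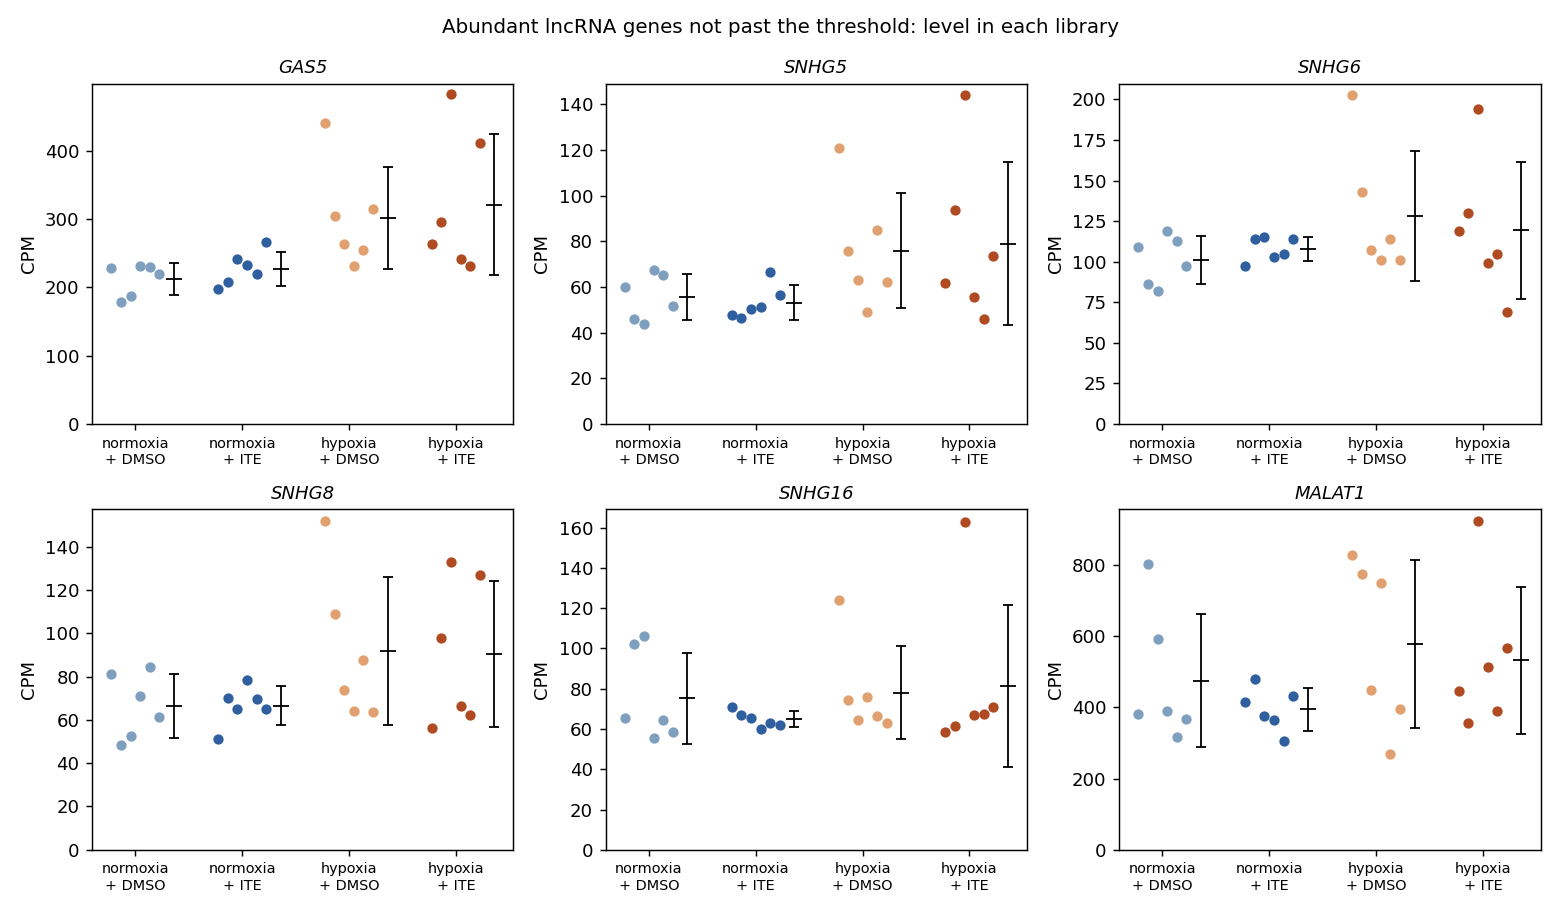
Panels show 6 abundant lncRNA genes that did not pass the test, with CPM on the vertical axis from 0, 1 point per library in replicate order and a bar for the mean and SD (n = 6). The highest points in the hypoxic groups of GAS5, SNHG5, SNHG6, SNHG8 and SNHG16 are hypoxia + DMSO replicate 1 and hypoxia + ITE replicate 3.

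NEAT1 and MALAT1, neighbours on chromosome 11 (65190245-65213011 and 65265111-65275544, both on the plus strand), had values of opposite sign, and neither passed the test. NEAT1 had lowest, median and highest levels of 81.8, 90.9 and 111 CPM in normoxia + DMSO and 52.2, 82.5 and 92.1 CPM in hypoxia + DMSO. With ITE they were 79.2, 97.7 and 113 CPM and 55.8, 76 and 97.6 CPM. The groups overlapped. By replicate number, which the fit did not pair, hypoxia was lower in 6 of 6 with DMSO and in 5 of 6 with ITE. NEAT1 had a log2 fold change of -0.32 (SE 0.15, interval -0.62 to -0.02, adjusted p 0.491) with DMSO and -0.35 (SE 0.15, interval -0.65 to -0.05, adjusted p 0.172) with ITE. A rise of 0.5 or more on the log2 scale in the NEAT1 counts, which sum over its poly(A)-selected transcripts, lies outside both intervals.

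MALAT1 varied widely within groups, from 317 to 802 CPM in normoxia + DMSO (median 385), 269 to 829 CPM in hypoxia + DMSO (median 600), 305 to 480 CPM in normoxia + ITE (median 395) and 356 to 924 CPM in hypoxia + ITE (median 480). Its log2 fold change was 0.28 (SE 0.25, interval -0.25 to 0.80) with DMSO and 0.43 (SE 0.25, interval -0.09 to 0.95) with ITE. For MALAT1 the value with DMSO was 0.14 without hypoxia + DMSO replicate 1, and with ITE it was 0.21 without hypoxia + ITE replicate 3. A change of this size was not detectable against that spread. All 10 genes of a list of paraspeckle proteins were tested, among them NONO and SFPQ, which bind NEAT1. None was called in any comparison with edgeR, where 1.3% of all genes were called for hypoxia with DMSO and 2.35% with ITE. The unadjusted p was under 0.05 for 2 of the 10 in each hypoxia comparison, against 9.47% and 20.1% of all genes.

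None of the 32 tested LINC genes passed in either hypoxia comparison with edgeR or DESeq2. Over all genes edgeR called 1.3% with DMSO and 2.35% with ITE, and DESeq2 2.12% and 5.73%. The unadjusted p of edgeR was under 0.05 for 4 LINC genes with DMSO (12.5%, against 9.47% of all genes). With ITE it was under 0.05 for 5 (15.6%, against 20.1%). The values of the 32 LINC genes ran from -1.22 to 0.60 with DMSO and from -0.73 to 0.85 with ITE. The lowest came from genes of low level. LINC00669 (0.891 to 1.56 CPM in normoxia + DMSO, 0 to 1.37 CPM in hypoxia + DMSO) stood at -1.22 (SE 0.51, adjusted p 0.394) with DMSO and 0.40 (SE 0.46) with ITE. LINC00265 stood at -0.70 ± 0.38 (SE) and -0.73 ± 0.38, and LINC00641 at -0.60 ± 0.36 and -0.43 ± 0.35. The medians of these last genes in the 4 groups lay between 1.51 and 4.27 CPM.

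Abundant LINC genes gave tighter values. LINC00657 (NORAD) ranged from 170 to 222 CPM in normoxia + DMSO and from 151 to 203 CPM in hypoxia + DMSO, with log2 fold changes of -0.19 ± 0.18 (SE) and, with ITE, -0.34 ± 0.18. LINC00493, which RefSeq lists as the small protein gene SMIM26, stood at 0.42 ± 0.20 and 0.11 ± 0.20. LINC00152 (CYTOR) and LINC00094 (BRD3OS) are named here after their values were seen, because limma voom with sample quality weights called both with DMSO. LINC00152 had a median of 24.1 CPM in normoxia + DMSO and 31.6 CPM in hypoxia + DMSO, at 0.39 by voom (adjusted p 0.0445) and 0.50 ± 0.22 by edgeR (adjusted p 0.439). With ITE, LINC00152 stood at 0.63 ± 0.21 by edgeR (adjusted p 0.105) and was called when hypoxia + ITE replicate 4 (0.74, adjusted p 0.0429) or replicate 5 (0.75, adjusted p 0.0355) was left out. LINC00094 ranged from 13.0 to 16.9 CPM in normoxia + DMSO and from 10.6 to 12.4 CPM in hypoxia + DMSO without overlap, at -0.39 by voom (adjusted p 0.0434) and -0.38 ± 0.17 by edgeR (adjusted p 0.467), while with ITE its value was -0.00 ± 0.17.

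A list of 23 symbols of other lncRNA genes also named CYTOR and NORAD, which entered above as LINC00152 and LINC00657. The count tables held 20 of the 23 symbols, such as ZFAS1 and H19, and 13 were tested. None of these was called for hypoxia with edgeR, against 1.3% of all genes with DMSO and 2.35% with ITE. The unadjusted p was under 0.05 for 2 of the 13 with DMSO and 1 with ITE, against 9.47% and 20.1% of all genes. ZFAS1, itself a snoRNA host, stood at 0.34 (adjusted p 0.481) with DMSO and 0.19 (adjusted p 0.505) with ITE. The 95% interval of the log2 fold change lay within ±1 for 41 of the 56 genes with DMSO and 38 with ITE, and within ±0.5 for 7 and 8. For most of the genes a 2-fold change was therefore outside the interval, and a smaller one was not.

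None of the 56 lncRNA genes was called for ITE with edgeR in normoxia, where 0.0511% of all tested genes were called, or in hypoxia, where 0.0597% were. The unadjusted p was under 0.05 for 1 of the 56 in normoxia (1.79%, against 1.46% of all genes) and 3 in hypoxia (5.36%, against 9.56%). DESeq2 called 0 of the 56 in both, where it called 0.119% and 0.0767% of all genes. Voom called 1 in normoxia and 0 in hypoxia, against 0.954% and 0.0682% of all genes. Log2 fold changes ran from -0.69 to 0.36 in normoxia (median -0.03, all genes 0.00) and from -0.33 to 1.06 in hypoxia (median 0.08, all genes 0.02). The interval lay within ±1 for 51 of the 56 in normoxia and 46 in hypoxia. In the same fit 3 of 5 tested genes of the AHR list were higher in normoxia and 2 of 5 in hypoxia.

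The gene that voom called in normoxia was LINC00312. Its lowest, median and highest levels were 0.707, 2.09 and 2.81 CPM in normoxia + DMSO and 0.862, 1.08 and 2.20 CPM in normoxia + ITE, so the ranges overlapped. By edgeR the log2 fold change was -0.69 (SE 0.30, interval -1.31 to -0.07, adjusted p 1), and by voom -0.90 (adjusted p 0.0483). In hypoxia it was 0.33 ± 0.32 (SE). Among genes that reached a mean of 1 CPM in a compared group and kept 1 direction in at least 5 of 6 same-numbered replicates, the next lowest values in normoxia were those of LINC00669 (-0.56 ± 0.44) and SNHG12 (-0.46 ± 0.23, interval -0.94 to 0.01), and SNHG12 was lower with ITE in 6 of 6 same-numbered replicates. The highest were LINC00478 (0.36 ± 0.37), MIR17HG (0.33 ± 0.25) and MIR155HG (0.33 ± 0.19, interval -0.06 to 0.72), the last of which was higher with ITE in 6 of 6 same-numbered replicates. None of these passed the test.

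By the same limits the outermost values of ITE in hypoxia were those of LINC00085 (0.59 ± 0.31), LINC00312 and LINC00460 (0.26 ± 0.31) on the positive side, and LINC00265 (-0.33 ± 0.40), LINC00493 (-0.29 ± 0.20) and LINC00847 (-0.21 ± 0.33) on the negative side, each with its SE. None passed the test. The genes with unadjusted p under 0.05 in hypoxia were LINC00638 (0.79 ± 0.37), LINC00669 (1.06 ± 0.53) and MIRLET7BHG, which stood at 0.99 (SE 0.45, adjusted p 0.506), whose highest library, hypoxia + ITE replicate 6, had 5.55 CPM against at most 2.51 CPM in the rest of its group. MIR210HG, the gene with the largest hypoxia value, stood at 0.17 ± 0.31 for ITE in normoxia and 0.44 ± 0.27 in hypoxia (interval -0.12 to 1.0).

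**Figure D5:**
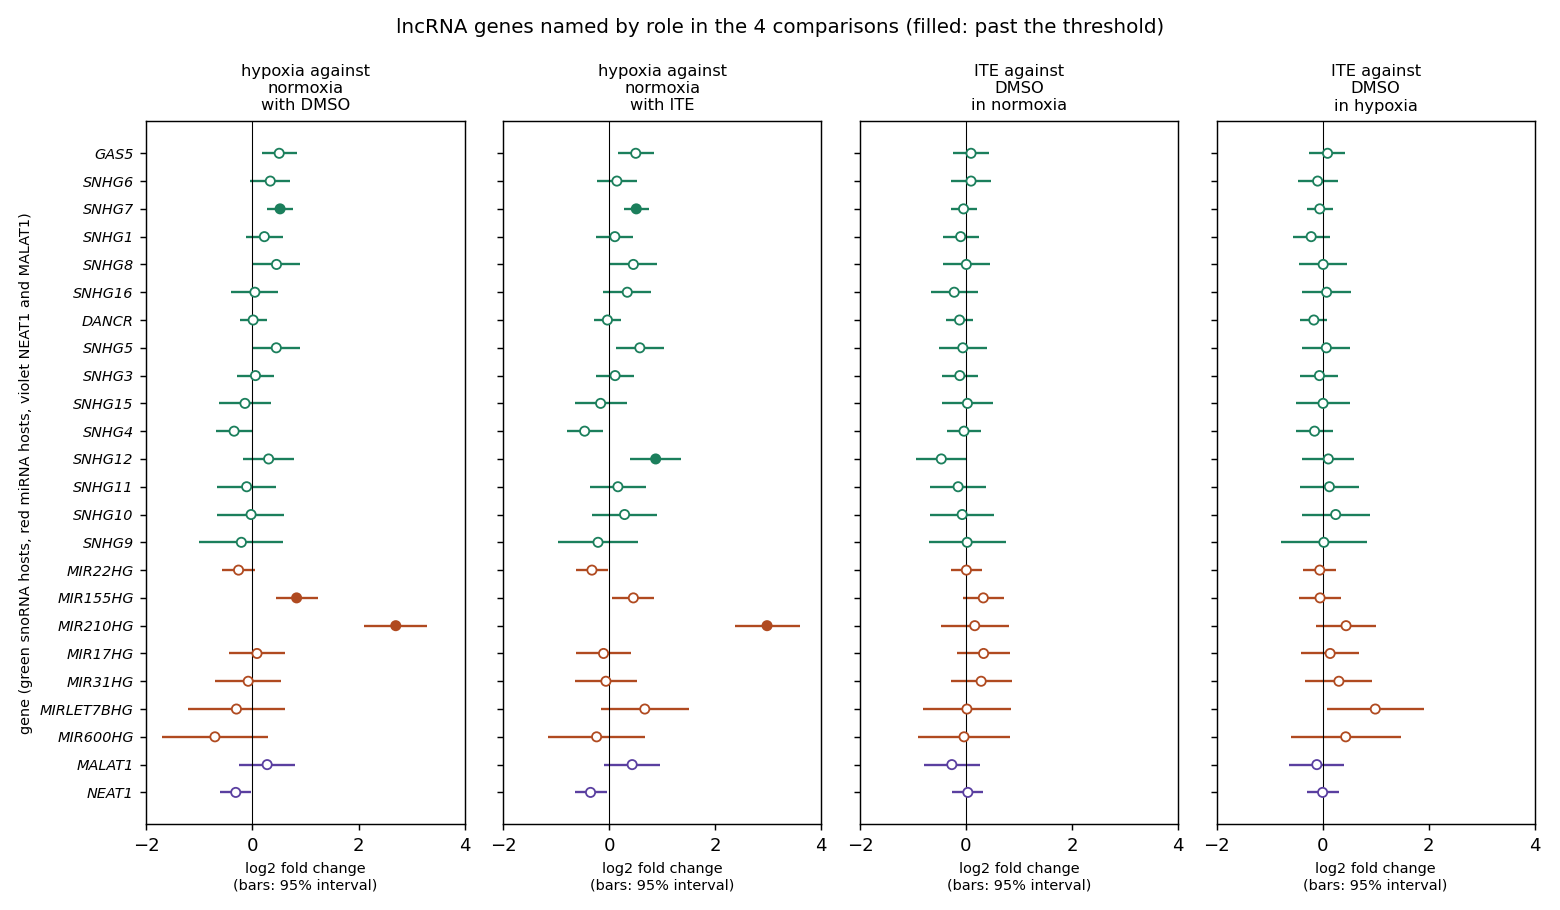
The 4 panels show the log2 fold change (horizontal axis) and its 95% interval for the 24 snoRNA hosts, miRNA hosts, NEAT1 and MALAT1 in the hypoxia and ITE comparisons, with filled points past the threshold. Filled points appear for SNHG7, MIR155HG and MIR210HG with DMSO and for SNHG7, SNHG12 and MIR210HG with ITE, and none appears in the ITE panels.

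Whether hypoxia acted differently on the lncRNA genes in the presence of ITE was tested by the interaction, the hypoxia difference with ITE minus that with DMSO. None of the 56 passed with edgeR, DESeq2 or voom, and 0% of all tested genes did with edgeR. The unadjusted p was under 0.05 for 2 of the 56, LINC00312 at 1.02 ± 0.44 (SE) and LINC00669 at 1.62 ± 0.69, both at an adjusted p of 0.915. The interaction of MIR210HG was 0.27 (SE 0.42, interval -0.58 to 1.13) and that of SNHG7 -0.01 (SE 0.17, interval -0.35 to 0.33). For SNHG7 a difference between the 2 hypoxia effects of more than 0.35 on the log2 scale lies outside that interval, while for MIR210HG one of up to 1.13 does not. The interval lay within ±1 for 31 of the 56 genes.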

How the data were processed

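RNA of RCC4+VHL cells in 4 groups of 6 replicates was analysed, with groups and replicate numbers taken from the sample labels. The authors deposited raw gene counts, 1 value per symbol and library, made by trimming with Trim Galore 0.3.3, alignment to GRCh37 with HISAT2, exclusion of multiply mapped reads with Picard 2.0.1 and counting with HTSeq 0.5.4p3. The counts are not normalised. Library totals ran from 770094 to 93851342, and depth limits the genes under about 1 CPM.

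With R 4.3.3 and edgeR 4.0.16, filterByExpr (minimum count 10) kept 11735 genes, TMM factors scaled the libraries, and the quasi-likelihood test used all 24 libraries, with each group's mean as a coefficient. Benjamini-Hochberg adjustment of the two-sided p-values ran over all tested genes with a threshold of 0.05, and Wald standard errors and 95% intervals come from the same fit. The model was tested on data simulated for hypoxia against normoxia with DMSO. There 77.8% of changes of 1 and 22.2% of changes of 0.5 on the log2 scale were called. The 200 changed genes were drawn at random from all tested genes, so these shares do not measure recovery for the lncRNA genes. In the real data with DMSO the median SE was 0.26 for the 56 lncRNA genes and 0.18 for all genes. Of all calls, 5.71% were false. Levels are TMM-scaled CPM without a prior count. The comparisons were hypoxia against normoxia with DMSO and with ITE, ITE against DMSO in normoxia and in hypoxia, and the interaction. The 2 hypoxia comparisons share no libraries, whereas each of them shares libraries with both ITE comparisons.

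The genes, gene lists and tests were chosen with earlier results of these data known. Genes named are those past the threshold and, by their older symbols, all tested snoRNA and miRNA hosts with NEAT1, MALAT1, GAS5 and DANCR. The 10 highest per kilobase of GENCODE exon, of 69 genes, are also named. LINC00674, whose entry is a 160-base pseudogene model, and 3 genes that were not located have no place in that order. Up to 3 more are named per direction of each ITE comparison and of the lower side of each hypoxia comparison. These were taken by log2 fold change among genes with a mean of at least 1 CPM in a group. They also kept the same direction in at least 5 of 6 same-numbered replicates. Any further gene was named with its value in view, LINC00152, LINC00094 and LINC00638 among them.

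Alternatives were DESeq2 1.42.0, limma 3.58.1 voom with sample quality weights, other scaling factors, no filter, the replicate block, the compared groups alone, a stricter rule for membership and leaving out each replicate number. Leaving out single libraries, or 2 libraries together, was mostly added after seeing the data. Sequences and gene names are from RefSeq tables (GRCh38.p14) and positions of genes from GENCODE v44 lifted to GRCh37. The authors' read files and binding data were not used here.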

Additional observations from a re-analysis of the deposited data

Results flagged for a closer look

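Among 140 sets of 6 replicates (34 named lncRNA genes in 4 groups, and the share of counts on the set in 4 groups), 11 held a library whose distance to the next one was large against the range of its group by Dixon's criterion. That is 7.86%, where chance gives about 1 in 20. Hypoxia + DMSO replicate 1 was the highest of its group for SNHG16 (124 CPM, next 75.7), LINC00493 (98.2 CPM, next 64.6) and LINC00312 (2.66 CPM, next 1.69). Hypoxia + ITE replicate 3 was the highest for SNHG16 (163 CPM, next 70.7), for MALAT1 (924 CPM, next 568) and for the share of counts on the 73 genes (0.297%, next 0.215%). Hypoxia + ITE replicate 6 was the highest for SNHG12 (24.4 CPM, next 14.4) and MIRLET7BHG (5.55 CPM, next 2.51). Hypoxia + DMSO replicate 4 was the highest for MIR600HG (1.71 CPM, next 0.604) and the lowest for SNHG9 (0.761 CPM, next 1.16). Normoxia + DMSO replicate 1 was the highest for LINC00478 (1.65 CPM, next 0.921).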

How the results depend on the processing

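Over the alternatives run, no called lncRNA gene changed direction. Over the 56 genes, 5 comparisons and all alternatives, 10764 single values kept their side of the threshold. A further 44 lost a call (SNHG7, MIR155HG and SNHG12) and 10 gained a call. The 10764 include the stricter rule for membership, which repeats the main fit for each gene. For hypoxia with DMSO the count of 3 became 6 with voom (5 higher, adding GAS5 and LINC00152, and 1 lower, LINC00094), where 7.16% of all genes were called for hypoxia against normoxia with DMSO, and it ran from 1 to 3 when replicates were left out. For hypoxia with ITE the count of 3 became 1 (MIR210HG) with only the compared groups, and ran from 1 to 6 when replicates were left out, with 5 without hypoxia + ITE replicate 4 and 6 without replicate 5. Voom called 3 there (MIR210HG and SNHG7, and SNHG15 lower at -0.49, adjusted p 0.0321), against 5.16% of all genes. For ITE in normoxia the count of 0 became 1 with voom (0.954% of all genes). With the replicate block the counts were 3 and 3 for hypoxia with DMSO and with ITE and 0 for the other comparisons. The numbers share no stated batch: correlations of same-numbered libraries' deviations ran from -0.02 to 0.25 and 0.01 to 0.25 for hypoxia, and from -0.00 to 0.43 and -0.18 to 0.21 for ITE. The causes of these changes were not tested. Depth limits the 19 genes under 1 CPM, and 17 of the 73 genes were not tested.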
